A study of Rattus norvegicus with 4 samples.

Results

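The HOX genes of the rat were taken as every gene with a symbol of the form Hox, a cluster letter from a to d and a number, reached through the accession of a probe on the array. RefSeq lists 39 such genes on 4 chromosomes, and 25 of them were measured here by 30 probes, among 16526 named genes on the arrays. The measured genes were 6 of 11 in the Hoxa cluster (chromosome 4), 7 of 10 in Hoxb (chromosome 10), 5 of 9 in Hoxc (chromosome 7) and 7 of 9 in Hoxd (chromosome 3). The other 14 genes, among them Hoxa9 and Hoxa10, had no matching accession and were not analysed here.

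The cells were NR8383, a rat macrophage line that came from lung lavage, labelled with 20 passages and growing partly attached and partly in suspension. Every culture had been exposed for 4 h to zinc iron oxide (ZnFe2O4, NRCWE021) at 17 µg/mL. RNA of 4 replicates, called biological in the study's design, was hybridised to 4 rat gene expression arrays of 1 colour, so there is 1 group. Unexposed cells were not analysed here, so the values describe HOX genes in exposed cells alone.

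HOX genes encode transcription factors that bind DNA through a homeodomain. They lie in 4 clusters whose gene order follows the body axis, so that low paralog numbers act towards the head and high numbers towards the tail and the limb tips. In blood formation HOX genes, with PBX and MEIS proteins as partners on DNA, are known for activity in stem and progenitor cells, and many are turned off as myeloid cells mature. Trithorax proteins keep active HOX genes on, and Polycomb proteins keep silent ones off.

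No measured HOX gene was well above background on both replicate 1 and replicate 4. The count was 0 of 25, against 7598 of 16526 named genes (46.0%). It was also 0 of 25 on all 4 arrays, against 7030 named genes (42.5%). The flag is that of the scanner software, which compares a spot with its background. Replicates 1 and 4 are set apart because the rule that defined the gene set names them. The dimmest spike-in probe, a control RNA, read 3.49 and 3.75 intensity units there with 0 of 35 spots flagged. On replicates 2 and 3 the same probe read 554 and 115 units, with 35 and 34 spots flagged. Signals on those arrays are therefore given beside those of control probes.

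The 3 promoters below are shown for Hoxd3, the HOX gene that was flagged on most arrays, for Hoxd4, which lies next to it among the HOX genes and was flagged on no array, and for Hoxa13, whose signal on replicate 1 was just under that of the dimmest flagged spots. Capitals mark CG dinucleotides, the sites of DNA methylation in mammals. The windows are RefSeq's for the GRCr8 build and run from 250 bases before to 50 after the start.
Hoxd3, chr3:80045876-80046175, plus strand: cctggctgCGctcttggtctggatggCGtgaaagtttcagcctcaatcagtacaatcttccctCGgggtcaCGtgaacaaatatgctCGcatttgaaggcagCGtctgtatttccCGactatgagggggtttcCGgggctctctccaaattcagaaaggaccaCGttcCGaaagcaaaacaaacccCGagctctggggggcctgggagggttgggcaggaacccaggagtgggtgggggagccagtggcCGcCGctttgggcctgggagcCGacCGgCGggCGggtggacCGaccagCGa
Hoxd4, chr3:80021636-80021935, plus strand: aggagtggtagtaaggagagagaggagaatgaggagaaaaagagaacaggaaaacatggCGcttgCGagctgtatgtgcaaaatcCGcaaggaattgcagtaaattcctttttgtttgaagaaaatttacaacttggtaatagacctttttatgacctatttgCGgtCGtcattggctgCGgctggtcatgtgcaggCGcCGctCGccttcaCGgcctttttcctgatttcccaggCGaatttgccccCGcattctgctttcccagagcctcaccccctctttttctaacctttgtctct
Hoxa13, chr4:82691652-82691951, minus strand: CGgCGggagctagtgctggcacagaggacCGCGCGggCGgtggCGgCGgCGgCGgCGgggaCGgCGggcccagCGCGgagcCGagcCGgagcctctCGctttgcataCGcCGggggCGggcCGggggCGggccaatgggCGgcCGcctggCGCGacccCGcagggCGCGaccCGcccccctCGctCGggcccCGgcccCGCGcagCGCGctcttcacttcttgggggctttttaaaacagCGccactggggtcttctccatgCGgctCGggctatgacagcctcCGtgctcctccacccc

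The windows of Hoxd3, Hoxd4 and Hoxa13 held 19, 12 and 42 CG dinucleotides, against a median of 7 over all 33469 promoters in the table. As many or more were found in 25.7%, 37.1% and 2.40% of those promoters. A comparison over the whole gene set is void, since 13 of the 25 measured genes (52.0%) had an entry.

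**Figure D1:**
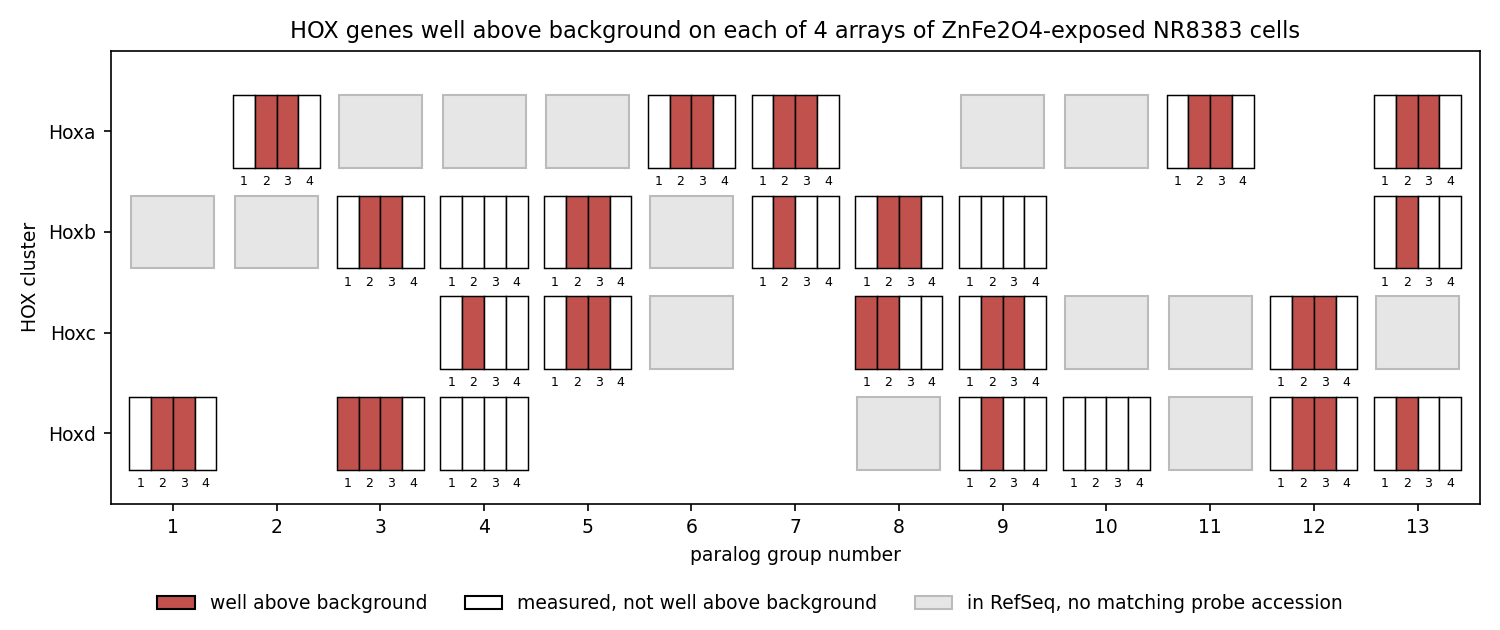
Measured HOX genes (24 of the 25) are drawn at its cluster (rows) and paralog group number (columns), each as 4 bars for replicates 1 to 4, filled where the gene was well above background. Filled bars lie almost all at replicates 2 and 3; 2 genes, Hoxc8 and Hoxd3, were flagged on replicate 1 and 0 on replicate 4, and the 14 grey boxes are genes with no matching probe accession.

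Single arrays differed strongly in how many HOX genes were flagged. Well above background were 2, 21, 15 and 0 of the 25 genes on replicates 1 to 4. The shares of all named genes were 52.3%, 91.6%, 75.5% and 46.3% in the same order. Flagged on replicates 2 and 3 and on neither other array were 14 HOX genes, against 27.8% of named genes. A further 5 HOX genes were flagged on replicate 2 alone, against 12.8% of named genes. The 4 genes flagged on no array were Hoxb4, Hoxb9, Hoxd4 and Hoxd10, against 6.37% of named genes.

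The clusters could not be ordered on replicates 1 and 4, where each had a count of 0. On exactly 1 of these arrays, 1 Hoxc gene and 1 Hoxd gene were flagged, against 6.67% of named genes, and 0 Hoxa or Hoxb genes. On both replicate 2 and replicate 3, all 6 measured Hoxa genes, 3 of 7 Hoxb, 3 of 5 Hoxc and 3 of 7 Hoxd genes were flagged. Together these are 15 of 25 HOX genes, against 74.8% of named genes. By position, 5 of 8 genes of paralog groups 1 to 4, 5 of 7 of groups 5 to 8 and 5 of 10 of groups 9 to 13 were flagged on both of these arrays. Genes of a cluster are not replicates, so these counts are a description and were not tested.

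Hoxd3 and Hoxc8 were the only members flagged on replicate 1. Hoxd3, which in the mouse patterns the first neck vertebrae, read 17.2, 1351, 335 and 9.06 intensity units on replicates 1 to 4. It was flagged on the first 3 of these arrays. The second Hoxd3 probe read 4.11, 239, 17.4 and 4.64 units and was flagged on replicate 2 alone, so the probes of this gene disagree. Hoxc8, which in the mouse patterns thoracic vertebrae and motor neurons, read 27.6, 722, 77.3 and 6.55 units. It was flagged on replicates 1 and 2.

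On replicate 1 the dimmest flagged gene spot of the whole array read 15.2 units. The signals of Hoxd3 and Hoxc8 there had a scanner error of 3.70 and 4.84 units. Hoxa13 at 14.9 and Hoxb8 at 14.4 units were not flagged there. On replicate 4, where the dimmest flagged spot read 13.8 units, the brightest HOX probe was that of Hoxb5 at 13.2 units. Every HOX probe had 1 spot per array. Repeated spots of single control probes had a median SD of 0.51, 0.43, 0.60 and 0.40 log2 units on replicates 1 to 4.

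In the Hoxa cluster, Hoxa2, which sets the identity of the second pharyngeal arch, read 3.28, 271, 123 and 3.29 units with its brighter probe. Its second probe read 3.21, 124, 19.5 and 2.85 units and was flagged on replicate 2 alone. Hoxa6 read 3.72, 655, 112 and 3.87 units. Both genes were flagged on replicates 2 and 3 and on neither other array. Hoxa7, which is active with Hoxa9 in leukaemias driven by KMT2A fusions, read 3.88, 119, 92.4 and 3.34 units. Hoxa11, known from the kidney, uterus and limb, read 3.26, 868, 207 and 6.15 units with its brighter probe. The second Hoxa11 probe read 3.70, 77.4, 73.6 and 3.94 units and was flagged on no array, so the probes of this gene disagree. Hoxa13, needed for the digits and the genital tract, read 14.9, 1272, 299 and 7.71 units. Signals on replicates 2 and 3 thus exceeded those on replicates 1 and 4 for each Hoxa gene named here, without overlap. The arrays differed likewise over all 45385 gene probes, so this shift is not particular to Hoxa genes. The median log2 difference was -4.97 for replicate 1 minus 2 and -2.47 for replicate 1 minus 3. It was 5.43 for replicate 2 minus 4 and 3.05 for replicate 3 minus 4.

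None of the 7 measured Hoxb genes was flagged on replicate 1 or 4, those known from blood progenitors included. Hoxb4, which expands blood stem cells when forced on, read 10.0, 23.5, 13.8 and 3.50 units and was flagged on no array. Hoxb5, a marker of long-term blood stem cells in the mouse, read 3.62, 539, 103 and 13.2 units. Hoxb8, whose forced activity holds mouse macrophage progenitors in division, read 14.4, 1636, 267 and 4.31 units. Both Hoxb5 and Hoxb8 were flagged on replicates 2 and 3. Hoxb3 showed the same flags with its brighter probe, at 3.02, 670, 149 and 2.88 units. Its second probe read 3.04, 85.4, 11.5 and 2.72 units and was flagged on no array. Hoxb7 read 3.24, 282, 57.8 and 4.76 units and Hoxb13, a prostate gene, 3.74, 127, 26.8 and 3.63 units, each flagged on replicate 2 alone. Hoxb9, a gene of the thoracic skeleton, read 3.09, 31.6, 11.9 and 2.91 units and was flagged on no array.

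In the Hoxc cluster, Hoxc5 read 4.24, 1465, 130 and 6.12 units. Hoxc9, which sets thoracic motor neuron identity, read 7.05, 418, 160 and 3.29 units, and Hoxc12 read 5.15, 864, 83.4 and 5.00 units. These genes were flagged on replicates 2 and 3 only. Hoxc4 read 3.83, 159, 14.6 and 3.84 units and was flagged on replicate 2 alone.

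In the Hoxd cluster, Hoxd1, a gene of pain-sensing neurons in the mouse, read 2.99, 511, 79.4 and 2.73 units, and Hoxd12 read 3.42, 683, 212 and 8.23 units. Both were flagged on replicates 2 and 3 only. Hoxd9 read 3.11, 323, 27.7 and 2.90 units and Hoxd13, a gene of digit formation, 3.79, 137, 55.7 and 3.90 units, flagged on replicate 2 alone. Hoxd4 read 3.43, 22.8, 37.6 and 2.72 units, and Hoxd10, known from lumbar motor neurons, 3.69, 106, 15.3 and 3.92 units, with no flag on any array.

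Most of the low readings carry no order among the genes. On replicate 1, 19 of 30 HOX spots (63.3%) had a processed signal within 0.02 of their own scanner error as a ratio, against 31.5% of all gene spots. On replicate 4 the count was 17 of 30 (56.7%), against 39.6%. On replicates 2 and 3 it was 2 and 7 of 30, against 2.50% and 10.3% of gene spots. Such signals on replicates 1 and 4 lay between 2.72 and 4.31 units, and differences among them were not read.

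HOX probes were next set beside control probes on the same array. The array carries 96 probes for ERCC RNAs, synthetic sequences that are designed to match no animal genome, and the labels name no addition of these RNAs. The median HOX probe read 3.71, 303, 78.4 and 3.89 units on replicates 1 to 4, and the median ERCC probe 3.63, 359, 90.4 and 3.44 units. No HOX probe exceeded the brightest ERCC probe on any of the 4 arrays. On replicates 1 to 4, 37.5%, 8.45%, 21.2% and 44.3% of named genes had a probe above it. On replicates 1 and 4 this rests on 1 ERCC probe, which read 101 and 21.9 units where the next brightest read 12.4 and 7.10 units. Above the second brightest ERCC probe were 5, 0, 2 and 5 of 25 HOX genes on replicates 1 to 4, against 56.3%, 11.4%, 23.9% and 55.6% of named genes. Hoxd3 was above it on replicates 1, 3 and 4 and Hoxa13 on replicates 1 and 4, Hoxc8 and Hoxb8 on replicate 1, and Hoxb5 and Hoxd12 on replicate 4. This comparison was added after seeing the data.

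Flags on the ERCC probes moved with the arrays as those of the HOX probes did. Flagged were 2, 24, 15 and 0 of 30 HOX probes on replicates 1 to 4, and 1, 84, 65 and 1 of 96 ERCC probes. The share of all gene spots also rose on replicates 2 and 3, at 47.0%, 89.5%, 70.5% and 41.6% on replicates 1 to 4. The hairpin negative control stayed dim on every array, with a median of 3.45, 23.0, 12.9 and 3.34 units over 308 spots, of which 0, 4, 0 and 0 were flagged. The part of non-specific signal in the HOX readings of replicates 2 and 3 was not tested. Across probes, the log2 signals of replicates 2 and 3 correlated with r = 0.79 over 30 HOX probes, r = 0.81 over 96 ERCC probes and r = 0.85 over 45385 gene probes. Between replicates 1 and 4, r was 0.48 over the HOX probes, 0.91 over the ERCC probes and 0.98 over the gene probes. The ERCC probes include 1 outlying probe at 101 and 21.9 units on these arrays. The rank correlation (Spearman) was closer, at 0.59, 0.69 and 0.87 in the same order. These points share the array, its labelling and the probe sequences, so r is a description.

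**Figure D2:**
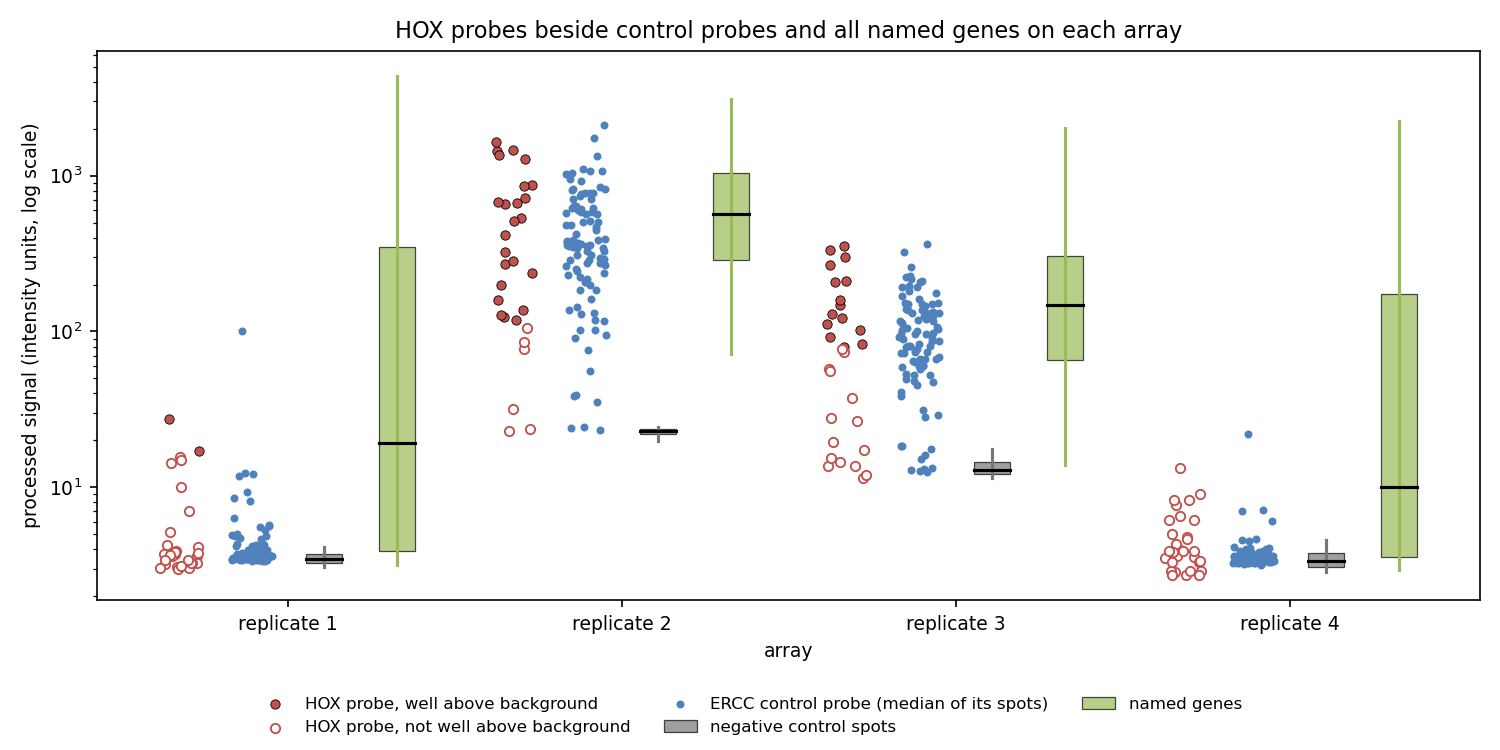
Processed signal (intensity units, log axis) on each array of 30 HOX probes (red, filled where well above background), 96 ERCC control probes (blue), 308 negative control spots (grey) and all named genes (green), where boxes span the quartiles with the median as a line and whiskers run from the 5th to the 95th percentile. HOX and ERCC probes overlap on each array, with medians of 303 and 359 units on replicate 2.

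**Figure D3:**
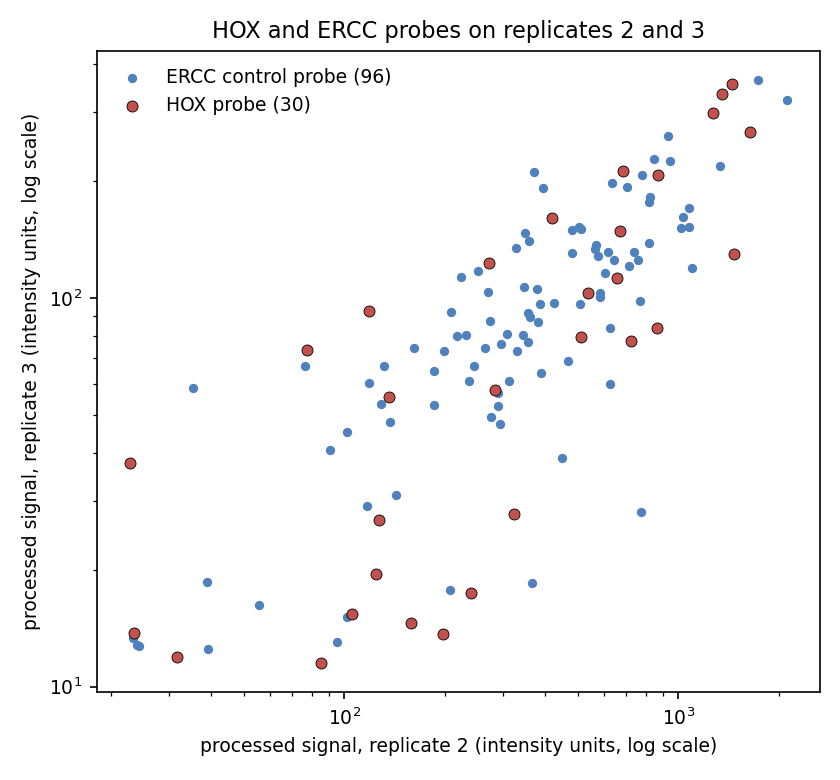
Processed signal on replicate 2 (x axis) and replicate 3 (y axis), both in intensity units on log axes, for 30 HOX probes (red) and 96 ERCC control probes (blue). The clouds of HOX and ERCC probes overlap, and the correlation of log2 signals was 0.79 for HOX and 0.81 for ERCC probes.

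Thresholds that were looser than the flag on replicates 1 and 4 let a few members through. On replicates 2 and 3 those set by the spike-in and the ERCC probes were stricter than the flag. The spike-in threshold passed 21.8% and 19.4% of named genes there, where 91.6% and 75.5% were flagged. By the scanner's weaker flag for a positive and significant signal, 6 of 25 HOX genes passed on replicates 1 and 4, against 61.3% of named genes, among them Hoxa11, Hoxa13, Hoxc8, Hoxc12 and Hoxd3. The same 6 genes passed on all 4 arrays, against 60.1% of named genes. A signal 3 SD over the dimmest spike-in was found on replicates 1 and 4 for 2 of 25 genes, Hoxd3 among them, against 52.4% of named genes, and on all 4 arrays for 0 of 25, against 14.8%. A signal above the 95th percentile of the ERCC probes of the same array was found on replicates 1 and 4 for 4 of 25 genes, among them Hoxa13, Hoxc8 and Hoxd3, against 56.2% of named genes. On all 4 arrays 3 of 25 exceeded it, Hoxa13 and Hoxd3 among them, against 19.6%. On replicates 1 to 4 singly, 6, 5, 4 and 10 of the 25 HOX genes exceeded it, against 61.0%, 24.1%, 35.6% and 63.8% of named genes. This threshold was chosen after seeing the data.

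The genes on either side of the clusters were read on the same arrays. Of the 24 nearest measured protein-coding genes, 3 on each side of each cluster, 19 were flagged on both replicate 1 and replicate 4. The count on all 4 arrays was also 19. The shares of all named genes were 46.0% and 42.5%. Beside Hoxa, Skap2, an adaptor of leukocyte signalling, read 4123, 2739, 1561 and 2489 units on replicates 1 to 4, and Hibadh, a mitochondrial enzyme of valine breakdown, read 2371, 1720, 891 and 1260 units. Hnrnpa1, an RNA-binding protein gene beside Hoxc, read 2389, 1858, 919 and 1331 units. Mtx2, a gene of mitochondrial protein import beside Hoxd, read 303, 865, 229 and 146 units. Each of these neighbours was flagged on all 4 arrays. The flanking genes not flagged on both replicate 1 and replicate 4 were Evx1, Skap1, Snx11, Atf7 and Chn1. An earlier list of cluster neighbours, whose 13 measured genes are all among these 24, had 11 flagged on both arrays. Nearest genes were taken by order along the chromosome in RefSeq after the HOX values had been seen.

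**Figure D4:**
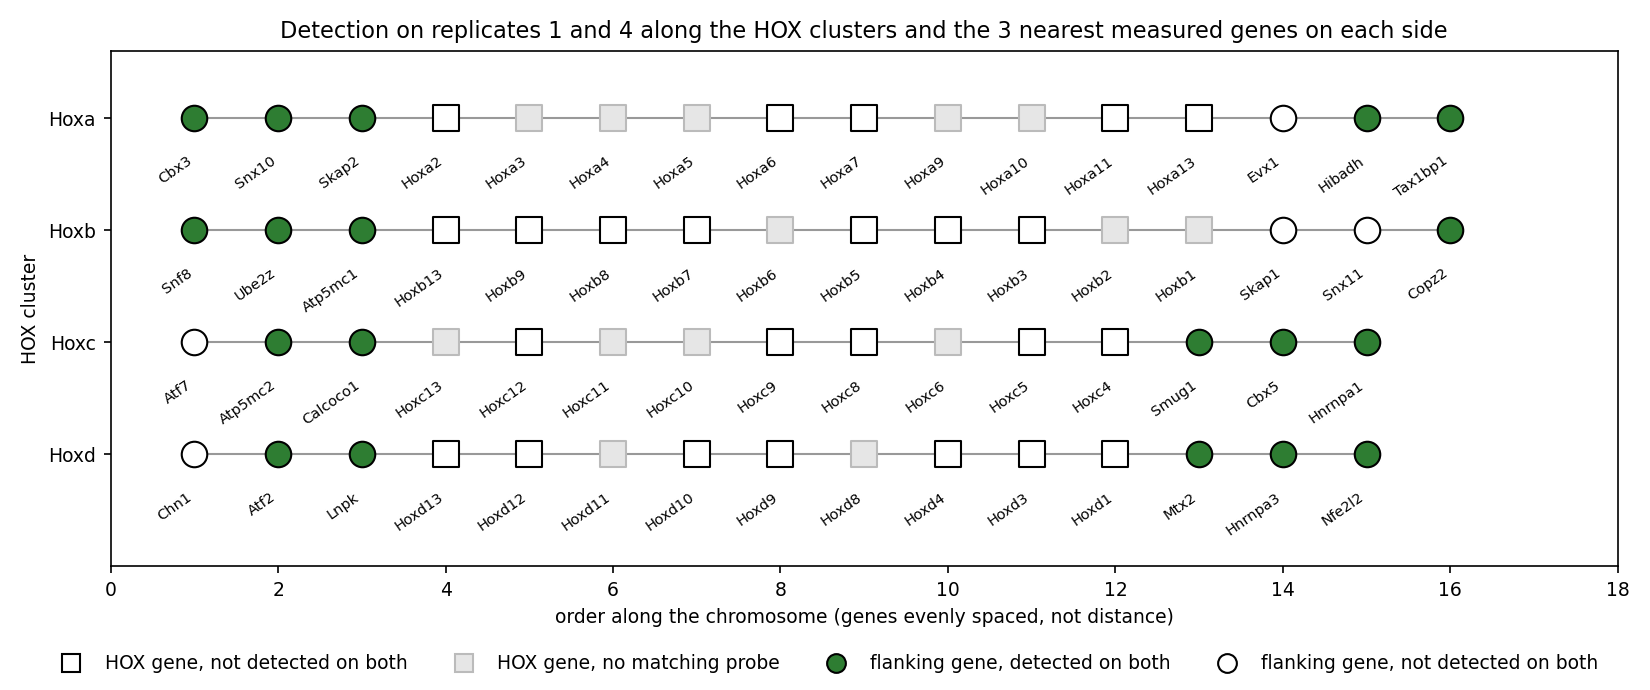
Genes of each HOX cluster (squares, 24 of the 25 measured genes drawn) with the 3 nearest measured genes on each side (circles), evenly spaced in chromosome order, filled green where well above background on both replicate 1 and replicate 4 and grey where no probe matched. Of the flanking genes 19 of 24 are green, and 0 of 25 measured HOX genes are.

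Other homeobox genes related to the HOX clusters gave the same count. The ParaHox genes are an ancient sister group of the clusters, and the Evx genes are linked to the clusters. Of 6 measured, 0 were well above background on both replicate 1 and replicate 4, against 46.0% of named genes. Cdx2, an intestinal regulator that activates HOX genes, read 16.6, 705, 86.0 and 4.46 units and was flagged on replicates 1, 2 and 3. Pdx1, a pancreatic regulator, read 3.32, 853, 168 and 2.92 units and was flagged on replicates 2 and 3.

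Partners of HOX proteins on DNA come from the TALE class of homeobox genes. Of 8 measured, 6 were flagged on both replicate 1 and replicate 4, and 5 on all 4 arrays. The shares of named genes were 46.0% and 42.5%. Pbx3 read 499, 604, 271 and 284 units and Meis3 377, 1206, 415 and 175 units, each flagged on all 4 arrays. Pbx2, Pbx4 and Pknox1 were also among the 6. Meis1, the partner of Hoxa9 in myeloid leukaemia, read 3.12, 847, 100.2 and 2.94 units and was flagged on replicates 2 and 3 only, as was Pknox2.

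Genes that keep HOX genes off or on were mostly flagged. On the Polycomb side, 9 of 11 measured genes were flagged on all 4 arrays, against 42.5% of named genes. Ezh2, which methylates histone H3 at lysine 27, read 155, 338, 88.8 and 84.0 units. Its partner Eed read 74.1, 659, 123 and 37.4 units, and Ring1, a ubiquitin ligase of the second Polycomb complex, read 427, 320, 262 and 210 units. The exceptions were Cbx2, flagged on replicates 2 and 3, and Cbx7, flagged on no array. In a joint list of trithorax and DOT1L genes, 7 of 8 measured genes were flagged on all 4 arrays. Among them were Men1 at 1258, 1064, 667 and 551 units and the histone methyltransferase gene Dot1l at 642, 837, 451 and 349 units. Ash1l was flagged on replicates 2 and 3 only. RNA of these genes says nothing of protein activity at the clusters, which was not measured.

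Retinoic acid is a known inducer of HOX genes. Of its pathway, 3 of 9 measured genes were flagged on all 4 arrays, against 42.5% of named genes. These were the receptor genes Rara, Rxra and Rxrb, with Rara at 1347, 813, 559 and 504 units. Rarb, itself a retinoic acid target, read 3.65, 369, 135 and 6.07 units. The receptor gene Rarg and the retinoic acid breakdown enzymes Cyp26a1 and Cyp26b1 were not flagged on replicate 1 or 4.

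**Figure D5:**
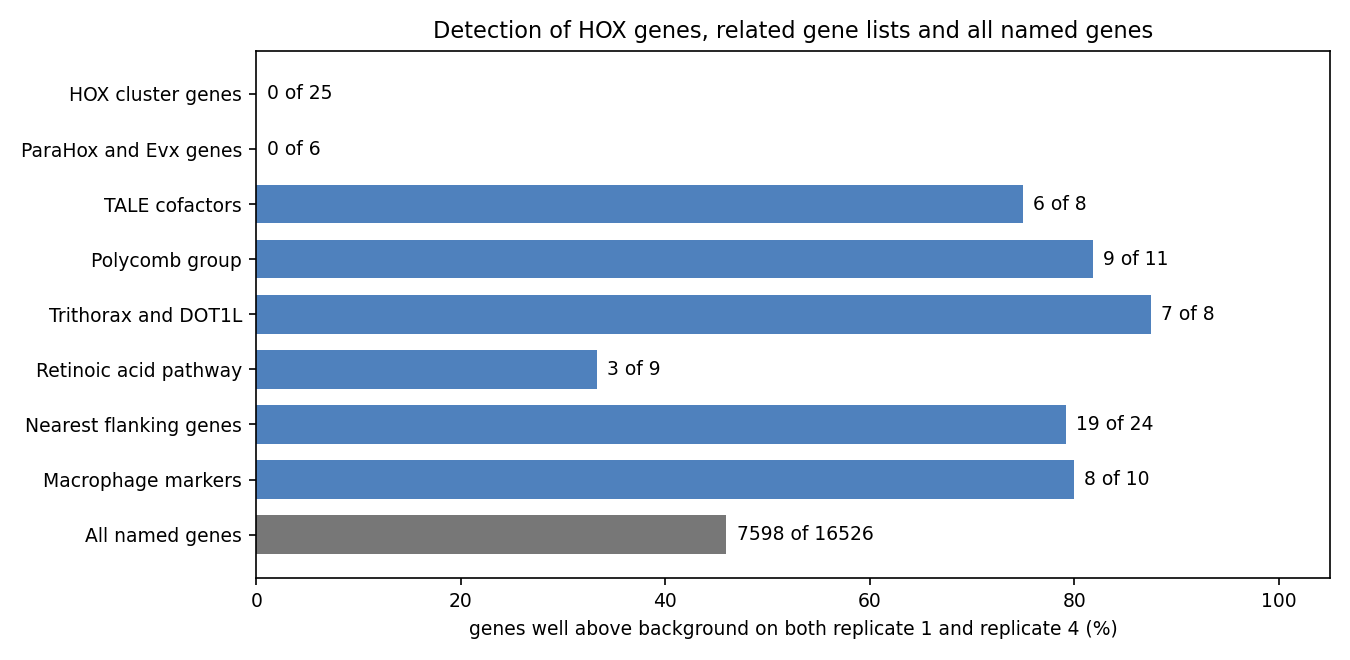
Share of measured genes (x axis, percent) that were well above background on both replicate 1 and replicate 4, for HOX genes (top bar, red), related gene lists (blue) and all named genes (bottom bar, grey), with counts beside the bars. The HOX and ParaHox bars stand at 0 of 25 and 0 of 6, beside 7598 of 16526 for all named genes.

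The label of a macrophage line was checked on its markers. Of 10 measured macrophage markers, 8 were flagged on all 4 arrays, against 42.5% of named genes. Among them Cd68 read 9443, 7650, 7585 and 5909 units and the lineage factor Spi1 1696, 2893, 1094 and 653 units. Marco and Adgre1 were the exceptions. Of 24 measured markers of other cell types, 7 were flagged on all 4 arrays, against the same 42.5%, namely Dcn, Pecam1, Cdh5, Vwf, Nkg7, S100a8 and Camp. By type these were 3 of 4 endothelial, 2 of 3 neutrophil, 1 of 4 T and NK and 1 of 6 fibroblast and smooth muscle markers. The epithelial and B cell lists had 0 of 6 and 0 of 1. Vwf, an endothelial marker, read 3649, 2951, 2246 and 2032 units. These lists therefore do not set macrophages apart from endothelial cells or neutrophils. Fibroblasts are known for strong HOX patterns. Of 6 measured fibroblast and smooth muscle markers, Dcn was flagged on all 4 arrays at 161, 302, 98.3 and 80.0 units. Acta2 was flagged on replicate 1 alone, at 25.6 units, and Col1a1, Col1a2, Col3a1 and Pdgfra were not flagged on replicate 1 or 4. Their part in the HOX readings was not tested.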

How the data were processed

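RNA of 4 cultures was measured on 4 arrays of 1 colour. The deposited files hold processed spot intensity from Agilent Feature Extraction 11.0.1.1, background-corrected within each array, per the file headers. No step between arrays is recorded. The other columns used are flags (0 or 1), and the deposited value table equals the median spot intensity on all 62976 spots of each array. Spots carrying the scanner's outlier flags (uneven pixels, or apart from repeat spots) were not used. Probes were named through their accession and the RefSeq table of GRCr8, and 21109 of 45598 had a name. A gene with several probes took the flag of any probe and the signal of its brightest one. For levels, the log2 signal minus the array's 75th percentile was used. Normexp and quantile alternatives used limma 3.58.1 with R 4.3.3, and other steps Python 3.11.15. The counting steps were run on simulated arrays whose flags were set to the known answer. That run cannot tell whether a flag marks true signal. With 1 group no test was made, and the number of arrays limits the precision. Named were the HOX genes flagged on replicate 1 or 4, and members of lists that were flagged on both or stand first among the rest; other HOX genes were named to account for the members. Single values of 1 HOX gene and 1 cofactor gene are not reported here. The members and lists were chosen with earlier results of these data known.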

Additional observations from a re-analysis of the deposited data

How the results depend on the processing

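The count of HOX genes well above background on replicates 1 and 4 was 0 of 25. Using the brightest probe alone could not raise it, since a gene took the flag of any probe. Keeping outlier spots could not change it, since no HOX spot carried an outlier flag. The count was 6 with the positive and significant flag. It was 2 (Hoxd3 among them) with a signal 3 SD over the dimmest spike-in, against 52.4% of named genes. By the 95th percentile of ERCC probes, a threshold chosen after seeing the data, it was 4. Leaving out each replicate gave 0 to 2, and the 2 came without replicate 4. Leaving out replicate 2 or 3 could not change a count made on replicates 1 and 4. On all 4 arrays the count was 0, with 6 by the weaker flag, 3 above the ERCC percentile and 0 over the spike-in, and 0 to 1 without each replicate. With the weaker flag the clusters counted 3 of 6 Hoxa, 0 of 7 Hoxb, 2 of 5 Hoxc and 1 of 7 Hoxd genes, and paralog groups 1 to 4, 5 to 8 and 9 to 13 counted 2, 1 and 3 of 8, 7 and 10, against 61.3% of named genes. Without replicate 4, Hoxc, Hoxd and paralog groups 1 to 4 and 5 to 8 counted 1 each, and without any other replicate 0. The median level over the 25 genes was -2.44 log2 units relative to the 75th percentile, with a median SD of 1.73 (n = 4). Scaling on probes detected on all arrays gave -5.26 and on the 3 brightest spike-in probes -8.30. Both set another zero, and both also changed the spread between arrays, with a median SD of 3.33 and 3.51. Normexp correction (offset 50), quantile normalisation and the mean of all probes gave -0.79, -2.86 and -2.79. Their own SDs were 0.52, 0.86 and 1.41. The 3 levels differ from the main one by less than the main SD of 1.73, but that SD is the spread between arrays. It is not an error of the median level, so no agreement between settings is read from it. Without each replicate the median level ran from -3.13 to -1.76, and on replicates 1 and 4 alone it was -4.01. The mean level over 4 arrays of Hoxd3 was -0.85 ± 1.72 and that of Hoxc8 was -1.55 ± 1.05 (SD, n = 4). Hoxd3 was at -2.34 on replicates 1 and 4 alone, -2.08 by the mean of its probes and 0.05 after quantile normalisation, and Hoxc8 was at -2.24 on replicates 1 and 4 alone. Against the second brightest ERCC probe in place of the brightest, the count of HOX genes above it was 5, 0, 2 and 5 on replicates 1 to 4, where it had been 0 on each. No paired analysis was possible because there is 1 group. Most HOX signals on replicates 1 and 4 lie at the scanner's error, so these arrays give a bound on HOX RNA and not its absence.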
